A study of Mus musculus with 12 samples.

Results

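The transcripts of the MYC, MAX and MXI1 network were followed in NIH3T3 cells, a mouse embryonic fibroblast line, under normoxia and hypoxia and with and without the N-VEGF coding sequence. The network was taken as 10 genes chosen by name from the table of gene counts (Myc, Mycn, Mycl, Max, Mxi1, Mxd1, Mxd3, Mxd4, Mnt and Mlx), out of 54446 genes. All 10 were found, and 9 of them were among the 14724 genes with enough reads to be tested, while Mycl was not. RNA was sequenced from 4 groups of 3 libraries: NIH3T3 wt cells under normoxia, the same cells under hypoxia, and dN-VEGF cells under each condition. Hypoxia meant 16 h in a chamber with less than 0.2% oxygen, and normoxic cultures were kept in air with added CO2 for a similar time. dN-VEGF cells were made from NIH3T3 by Cas9 cutting at both ends of the stretch of Vegfa that encodes N-VEGF, the amino-terminal part cleaved from a long form of VEGF-A, followed by picking of drug-resistant clones, removal of the inserted cassette by VCre and sorting. The labels do not say which clone was sequenced, and the wild-type cells had not gone through that selection, so a difference between the lines cannot be told apart from a difference between clones. The labels call the libraries triplicates without saying that they came from separate cultures, and p-values then measure only the spread between these libraries, which may be technical.

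MYC, MYCN and MYCL are transcription factors that pair with MAX and bind the E-box, the sequence CACGTG, at genes for ribosome assembly, metabolism and the cell cycle. MXI1, MXD1, MXD3, MXD4 and MNT also pair with MAX and bind the same sites, but recruit the SIN3 and histone deacetylase corepressors, so they oppose MYC. MLX is a MAX-like partner of MNT, MXD1, MXD4 and the glucose-responsive factors MLXIP and MLXIPL, and MXI1 is known as a target of the hypoxia-inducible factors (HIF), which bind the core ACGTG or GCGTG.

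Sequence before the start sites of the members was searched for both motifs, and stretches are shown for 3 antagonists that rose under hypoxia in dN-VEGF cells. Windows of 250 bases before the annotated start (RefSeq, GRCm38.p6) were given for 9 members, among them 3 alternative starts of Mxi1, and for none of Myc. An E-box was found in the windows of Mxd4, Mnt and Mlx, and 6.02% of 32851 such windows in the genome held one. The HIF core outside an E-box, on either strand, was found in the windows of Mxi1 (the second and the third start), Mxd1, Mnt and Mycl, and in 35.4% of all windows. Windows of Mycn, Max and Mxd3 and of the upstream start of Mxi1 held neither. A match is a run of letters and not a measured binding site. Motifs are in capitals, on the strand of the gene, 5′ to 3′. The stretch of Mxi1 lies in an intron at chr19:53329323-53329375 (+ strand), just before the second start, with the HIF core. Those of Mnt at chr11:74830777-74830830 (+ strand) and Mxd4 at chr5:34187900-34187953 (- strand) lie upstream of the gene, with the E-box.
Mxi1: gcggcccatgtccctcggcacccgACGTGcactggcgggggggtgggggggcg
Mnt: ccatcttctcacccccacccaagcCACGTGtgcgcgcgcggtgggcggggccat
Mxd4: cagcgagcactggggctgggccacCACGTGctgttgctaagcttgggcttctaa

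Libraries held 30519052 to 43056690 counts on genes. Within groups, log2 expression correlated at 0.994 to 0.996 between hypoxic replicates. In wild-type normoxia, replicate 2 correlated at 0.956 and 0.957 with the others, which correlated at 0.996 with each other, and in dN-VEGF normoxia replicate 2 correlated at 0.986 with both others. Results that rest on wild-type normoxia are therefore also given without its replicate 2 where that changes them. Hypoxia raised 6 of 6 known HIF targets in both lines (Vegfa, Slc2a1, Car9, Pdk1, Ankrd37 and Egln3), where 18.2% of all tested genes rose in wild-type and 26.9% in dN-VEGF cells. All 6 fibroblast genes were found, with group means from 27.7 CPM for Pdgfrb to 17290 CPM for Vim (CPM is the count scaled to a common library size after TMM, which evens out most genes between libraries). Hypoxia moved them in both directions, with 1 higher (Vim) and 2 lower (Pdgfra and Pdgfrb) in wild-type cells, and 4 higher (Col1a1, Col1a2, Vim and Fn1) and 1 lower (Pdgfrb) in dN-VEGF cells. Pdgfra went from 667.7 to 133.8 CPM in wild-type cells (log2 -2.32, adjusted p = 0.0036, edgeR), and without replicate 2 of normoxia 5 of the 6 fell there (background 26.9%). Of the epithelial genes Epcam was at 0 in all libraries, and Cdh1, at group means of 0.429 to 1.42 CPM, was not called with all libraries, and without that one it was lower under hypoxia in wild-type cells (-1.41, adjusted p = 0.0018, edgeR) and lower in dN-VEGF than in wild-type normoxia (-1.60, adjusted p = 0.00097, edgeR). The leukocyte Ptprc and the endothelial Tek had too few reads to be tested. The endothelial Cdh5 rose in both lines and Pecam1 in dN-VEGF cells, and Cdh5 went from 2.18 to 6.03 CPM in wild-type and from 2.32 to 22.2 CPM in dN-VEGF cells under hypoxia. Its log2 rise in wild-type cells was 1.47 (adjusted p = 0.021, edgeR) and 2.15 without replicate 2 of normoxia (adjusted p = 0.00014, edgeR), and the rise of Pecam1 was not called with total counts (0.76, adjusted p = 0.064, edgeR); the part of such cells in the results was not tested. Counts over the whole of Vegfa do not check the removal of the N-VEGF stretch. In bulk RNA, a change in the share of some cells cannot be told apart from a change in RNA per cell.

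Hypoxia raised Myc and the antagonists Mxi1 and Mnt in both lines, and among these the rise of Mxi1 was by far the steepest. In wild-type cells 3 of the 9 tested members rose and 0 fell at an adjusted p below 0.05 (edgeR), where 18.2% of all tested genes rose and 18.3% fell. In dN-VEGF cells 5 rose (Myc, Mxi1, Mnt, Mxd4 and Mxd1) and 2 fell (Mycn and Mxd3), where 26.9% of all tested genes rose and 26.4% fell. Without replicate 2 of wild-type normoxia, 6 rose and 1 fell in wild-type cells (background 27.1% and 26.9%), and 6 rose and 3 fell in dN-VEGF cells (32.8% and 34.3%). With total counts in place of TMM, 2 rose and 1 fell in wild-type cells (background 12.8% and 32.7%) and 3 rose and 3 fell in dN-VEGF cells (15.3% and 44.5%), since Mnt (wild type), Mxd4 and Mxd1 were no longer called and Mycn (wild type) and Mlx were called lower. These counts carry no test, and the results are those of the single genes that follow.

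Myc, the family member with the most reads, lies at chr15:61985391-61990374 (+ strand). In wild-type cells it stood at 184, 215 and 163 CPM in normoxia and at 283, 308 and 294 CPM in hypoxia. The dN-VEGF libraries had 167, 175 and 159 CPM in normoxia and 275, 271 and 251 CPM in hypoxia. All 6 hypoxic libraries lay above all 6 normoxic ones. The rise was 1.58-fold in wild-type cells (log2 0.66 ± 0.11 SE, adjusted p = 0.0006, edgeR) and 1.59-fold in dN-VEGF cells (0.67 ± 0.11, adjusted p = 0.0003, edgeR). The difference between these responses was 0.01 on the log2 scale, with a 95% interval of -0.28 to 0.30. Between the lines, Myc differed by -0.17 in normoxia and -0.15 in hypoxia, with adjusted p of 0.43 and 0.35 (edgeR), and the value in hypoxia was called in 4 of 21 alternatives. These were the fit to the 6 hypoxic libraries alone, without and with the replicate number as a block (-0.16 in both, adjusted p = 0.023 and 0.0075, edgeR), the fit without both normoxia libraries numbered 2 (-0.15, adjusted p = 0.024, edgeR) and total counts (-0.37, adjusted p = 0.005, edgeR). In the same order, these fits called 57%, 61.1%, 55.8% and 26.8% of all tested genes. In TMM-scaled CPM the 3 hypoxic dN-VEGF libraries lay below the 3 hypoxic wild-type ones.

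Mycn, the paralog best known from neural tissue, was scarce, with 18 to 138 counts per library. It stood at 1.73, 0.65 and 1.73 CPM in normoxic wild-type cells and at 0.52, 0.62 and 0.84 CPM in hypoxic ones, groups that overlapped through replicate 2. The dN-VEGF libraries had 2.97, 1.14 and 2.74 CPM in normoxia and 0.72, 0.71 and 0.61 CPM in hypoxia. In dN-VEGF cells Mycn thus went the other way from Myc, with a called fall (3.35-fold lower, log2 -1.74 ± 0.44, adjusted p = 0.006, edgeR). In wild-type cells the difference was -1.06 ± 0.44 (adjusted p = 0.08, edgeR), and -1.38 without replicate 2 of normoxia (adjusted p = 0.0058, edgeR). Mycl, the third paralog, had at most 2 counts in each normoxic library and 2 to 10 in each hypoxic one, near the limit of detection, and no fold is given.

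**Figure D1:**
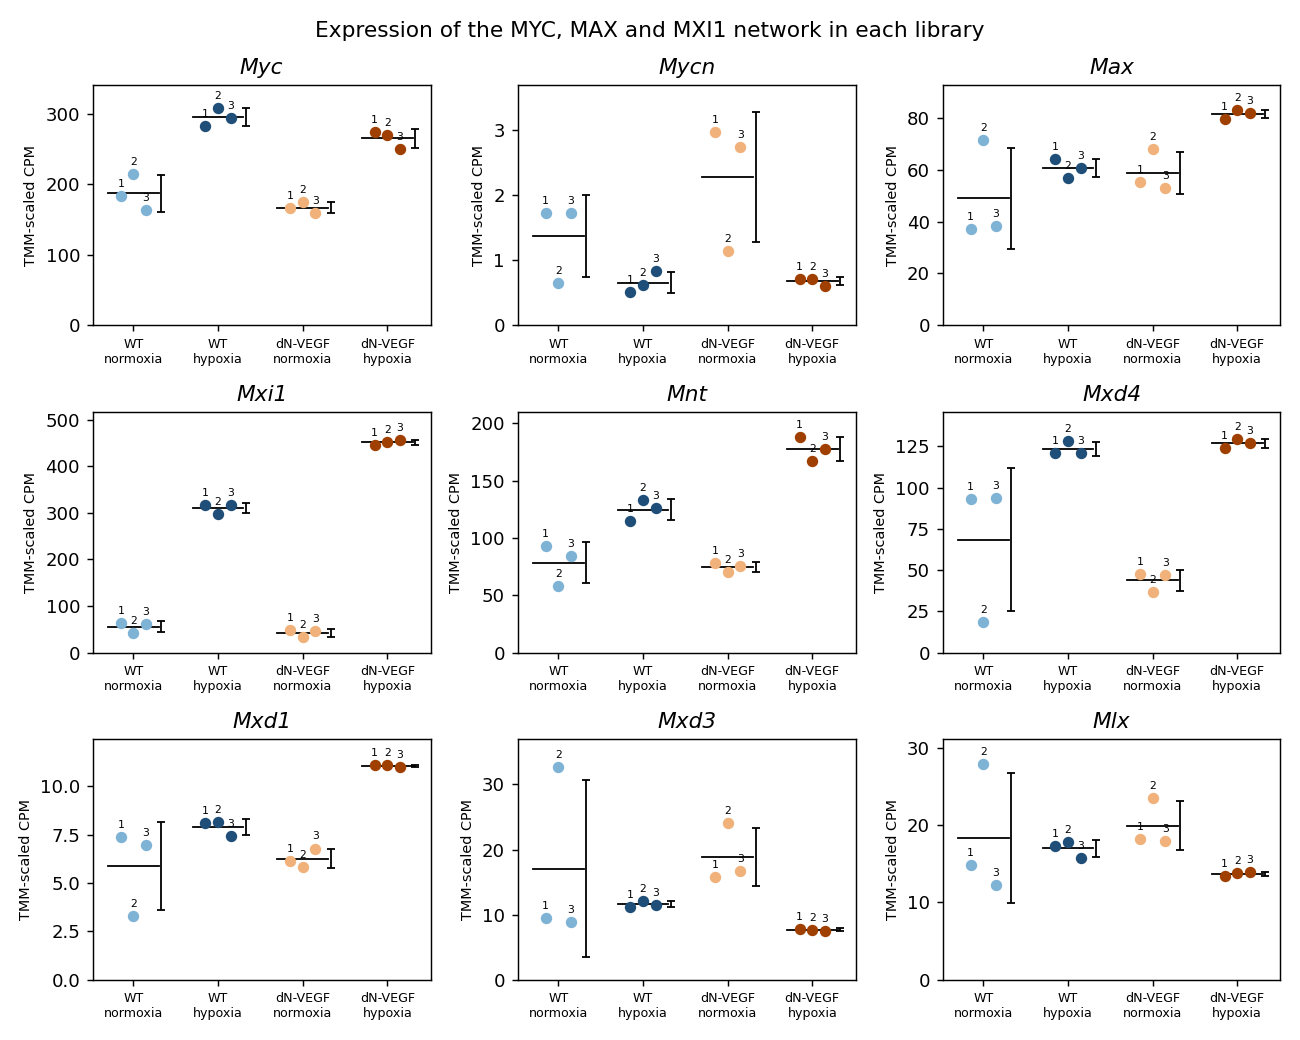
Expression of the 9 tested members in each library, in CPM scaled by TMM (linear axes from 0). Points are libraries with their replicate number, horizontal lines group means and bars the SD (n = 3). Mxi1 stands at 32.97 to 63.9 CPM in the 6 normoxic libraries and at 298 to 457 CPM in the 6 hypoxic ones, and replicate 2 of wild-type normoxia stands apart for Mxd4, Mxd3, Max and Mlx.

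Mxi1 (chr19:53310506-53375810, + strand), an antagonist of MYC, had the largest response of the network. It stood at 63.9, 41.5 and 61.1 CPM in normoxic wild-type cells and at 316, 298 and 317 CPM in hypoxic ones. In dN-VEGF cells it went from 48.6, 32.97 and 47.3 CPM to 446, 451 and 457 CPM. Every hypoxic library was above every normoxic one, and every hypoxic dN-VEGF library was above every hypoxic wild-type one. The rise was 5.59-fold in wild-type cells (log2 2.48 ± 0.18, adjusted p = 2.1e-06, edgeR) and 10.5-fold in dN-VEGF cells (3.39 ± 0.19, adjusted p = 1.4e-07, edgeR). These rises were called under all 21 alternatives of the processing, with log2 values of 2.24 to 2.59 and of 2.98 to 3.48.

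Mnt (chr11:74830920-74845725, + strand), an antagonist expressed in most cells, followed the same order at a smaller size. Its levels were 93.0, 58.1 and 84.4 CPM in normoxic wild-type cells and 115, 133 and 126 CPM in hypoxic ones. In dN-VEGF cells they were 78.5, 70.1 and 75.6 CPM in normoxia and 188, 168 and 177 CPM in hypoxia. Hypoxic and normoxic libraries did not overlap in either line. The rise was 1.59-fold in wild-type cells (log2 0.67 ± 0.15, adjusted p = 0.0051, edgeR) and 2.38-fold in dN-VEGF cells (1.25 ± 0.15, adjusted p = 4.8e-05, edgeR). The call in wild-type cells was lost with total counts in place of TMM (0.42, adjusted p = 0.091, edgeR) and in a fit to the 6 wild-type libraries alone, without and with the replicate number as a block (0.64 and 0.67, adjusted p = 0.063 and 0.13, edgeR).

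Mxd4 (chr5:34173883-34187720, - strand), an antagonist linked to exit from the cell cycle, depended on a single library in wild-type cells. It stood at 93.4, 18.3 and 93.9 CPM in normoxic wild-type cells and at 121, 128 and 121 CPM in hypoxic ones. For dN-VEGF cells the values were 47.5, 36.7 and 46.9 CPM in normoxia and 124, 129 and 127 CPM in hypoxia. In hypoxia the ranges of the lines overlapped (difference 0.04, 95% interval -0.80 to 0.88), and replicate 2 of wild-type normoxia was the lowest of the 12 libraries. The rise was called in dN-VEGF cells (2.90-fold, log2 1.54 ± 0.44, adjusted p = 0.012, edgeR). It was not called in wild-type cells (0.85 ± 0.43, adjusted p = 0.15, edgeR), where leaving out replicate 2 lowered the estimate and gave a call (0.40 ± 0.10, adjusted p = 0.0036, edgeR).

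Mxd1 (chr6:86647042-86669161, - strand), an antagonist induced in differentiating cells, was low. Its levels were 7.40, 3.27 and 6.97 CPM in normoxic wild-type cells and 8.10, 8.15 and 7.44 CPM in hypoxic ones. In dN-VEGF cells they were 6.14, 5.85 and 6.79 CPM in normoxia and 11.09, 11.10 and 10.98 CPM in hypoxia, the highest group. Mxd1 rose 1.77-fold in dN-VEGF cells (log2 0.82 ± 0.24, adjusted p = 0.013, edgeR). The difference in wild-type cells was 0.42 ± 0.24 (adjusted p = 0.19, edgeR), and 0.14 without replicate 2 of normoxia (adjusted p = 0.26, edgeR).

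Mxd3 (chr13:55325168-55329823, - strand) is the antagonist known for expression in S phase, and in dN-VEGF cells it fell while the others rose. It stood at 9.52, 32.7 and 8.94 CPM in normoxic wild-type cells and at 11.2, 12.2 and 11.5 CPM in hypoxic ones. Levels in dN-VEGF cells were 15.8, 24.02 and 16.8 CPM in normoxia and 7.86, 7.69 and 7.42 CPM in hypoxia, where it was lowest. The fall in dN-VEGF cells was 2.46-fold (log2 -1.30 ± 0.42, adjusted p = 0.022, edgeR). That call was lost without replicate 2 of dN-VEGF normoxia (-1.10, adjusted p = 0.078, edgeR) and without any of the 3 hypoxic dN-VEGF libraries (adjusted p = 0.059 to 0.065, edgeR). In wild-type cells the estimate was -0.55 ± 0.41 with all libraries (adjusted p = 0.32, edgeR) and 0.34 ± 0.16 without replicate 2 of normoxia (adjusted p = 0.081, edgeR), so its sign rests on that library. The exons of Mxd3 share 4.43% of their bases with Prelid1 on the opposite strand, which had 9708 to 27644 counts, and with no strand kept by the library kit these reads cannot be told apart.

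Max (chr12:76937269-76962201, - strand), the shared partner of MYC and its antagonists, stood at 37.3, 71.2 and 38.3 CPM in normoxic wild-type cells and at 64.0, 56.9 and 60.7 CPM in hypoxic ones. The dN-VEGF libraries had 55.2, 67.9 and 53.0 CPM in normoxia and 79.6, 82.8 and 81.8 CPM in hypoxia, again the highest group. Neither difference was called, at 0.31 ± 0.21 (adjusted p = 0.29, edgeR) in wild-type and 0.47 ± 0.21 (adjusted p = 0.085, edgeR) in dN-VEGF cells. Both were called in the fit without replicate 2 of wild-type normoxia, at 0.69 (adjusted p = 9.3e-05, edgeR) and 0.46 (adjusted p = 0.00046, edgeR).

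Mlx (chr11:101087277-101092207, + strand) stood at 14.8, 27.9 and 12.3 CPM in normoxic wild-type cells and at 17.3, 17.9 and 15.8 CPM in hypoxic ones. In dN-VEGF cells it stood at 18.2, 23.6 and 18.0 CPM in normoxia and at 13.4, 13.9 and 13.9 CPM in hypoxia. Its estimate was -0.11 in wild-type cells (adjusted p = 0.76, edgeR), with a called value of 0.33 once replicate 2 was left out (adjusted p = 0.045, edgeR), and -0.54 in dN-VEGF cells (adjusted p = 0.092, edgeR). The fall in dN-VEGF cells was called in 7 of 21 alternatives, among them the fit without replicate 2 of wild-type normoxia (-0.55, adjusted p = 0.00093, edgeR) and total counts (-0.94, adjusted p = 0.0019, edgeR). Its exons share 19.3% of their bases with Psmc3ip on the opposite strand, a gene with 73 to 770 counts, so the value of Mlx is uncertain.

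**Figure D2:**
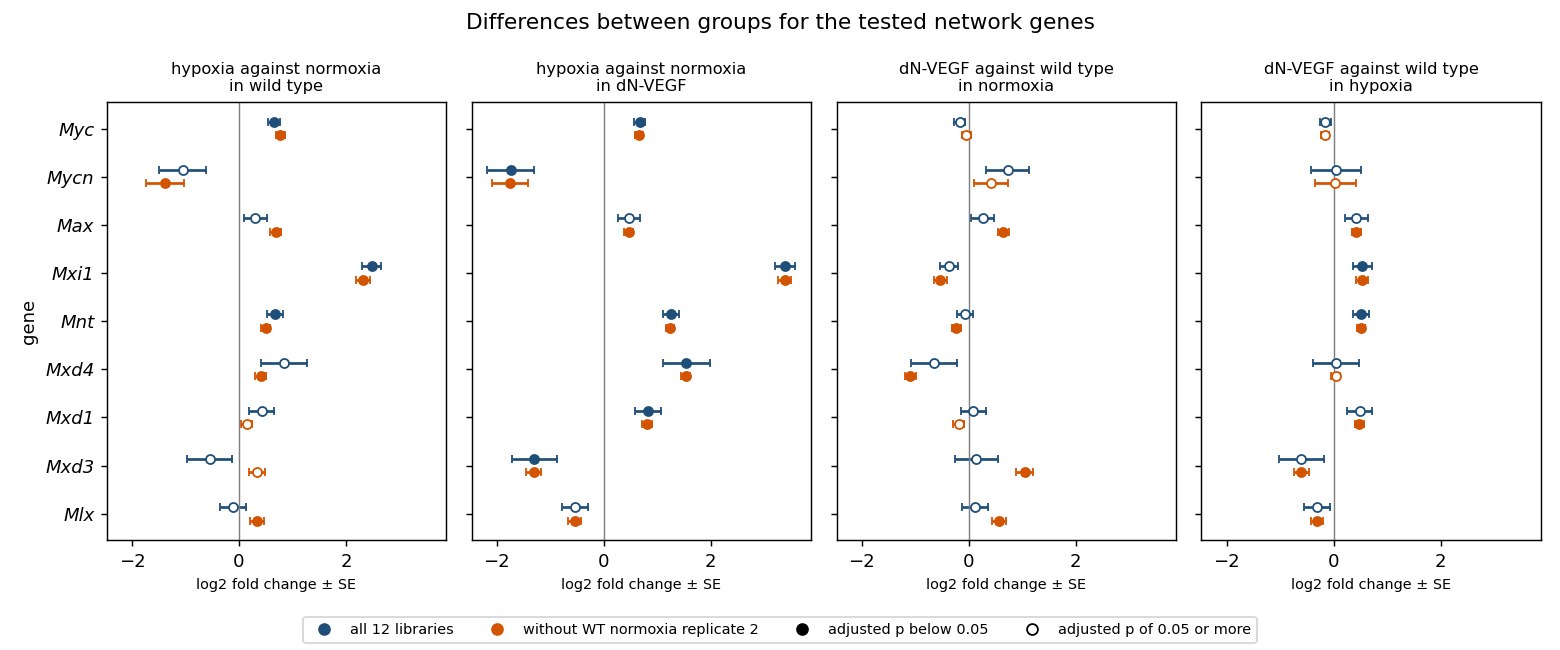
Log2 fold change ± SE of the 9 tested members in the 4 comparisons of 2 groups, from edgeR over all 12 libraries (blue) and without replicate 2 of wild-type normoxia (orange), with filled points at an adjusted p below 0.05. Mxi1 stands at 2.48 and 3.39 in the hypoxia comparisons, and Mxd3 and Mlx change sign in wild-type cells between the fits.

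Between the lines in normoxia, 0 of the 9 members were called by edgeR, 0 had an unadjusted p below 0.05, and DESeq2 called 0. Of all tested genes, edgeR called 1.39% higher and 2.97% lower in dN-VEGF cells, and DESeq2 2.69% and 5.47%. Without replicate 2 of wild-type normoxia, 3 members were higher (Mxd3 by 1.04, Max by 0.65 and Mlx by 0.57 on the log2 scale) and 3 lower (Mxd4 by -1.09, Mxi1 by -0.53 and Mnt by -0.24), against 25.7% and 23.2% of all genes. The adjusted p of these calls ran from 4.9e-06 for Mxd4 to 0.036 for Mnt (edgeR). Myc was not called in either fit. This comparison shares its wild-type normoxia libraries with the hypoxia comparison of wild-type cells.

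Between the lines in hypoxia, 2 members were called, and both were antagonists that were higher in dN-VEGF cells; 10.8% of all tested genes were higher and 9.36% lower. Mxi1 was 1.46-fold higher (log2 0.54 ± 0.17, adjusted p = 0.047, edgeR) and Mnt 1.43-fold higher (0.51 ± 0.15, adjusted p = 0.035, edgeR). Both calls lie close to the threshold. Both were lost on leaving out any 1 of the 6 hypoxic libraries, with an adjusted p of 0.11 to 0.13 for Mxi1 and of 0.06 to 0.13 for Mnt (edgeR). They were also lost without replicate 3 of dN-VEGF normoxia (0.06 and 0.051), and that of Mxi1 without wild-type normoxia 3 (0.051) or dN-VEGF normoxia 1 (0.055). With total counts the differences were 0.32 and 0.29 (adjusted p = 0.29 and 0.28, edgeR), and 0 members were called higher and 1, Myc, lower (background 4.57% and 22.2%). On that scale 3 members had an unadjusted p below 0.05. DESeq2 called 2 members higher, where it called 12% of all genes higher and 9.81% lower. In a fit to the 6 hypoxic libraries alone the differences of Mxi1 and Mnt were 0.53 and 0.50 (adjusted p = 2.1e-07 and 4.4e-06, edgeR). That fit called 57% of all tested genes. Without replicate 2 of wild-type normoxia, 4 members were higher (Mxi1, Mnt, Mxd1 and Max) and 2 lower (Mxd3 and Mlx), against a background of 21.2% in each direction.

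The difference of the hypoxia responses (dN-VEGF minus wild type) was called for 0 of the 9 members by edgeR, where 2 had an unadjusted p below 0.05 (Mxi1 and Mnt) and where 2.21% of all genes were called with a larger and 1.15% with a smaller value in dN-VEGF cells. For Mxi1 it was 0.91 ± 0.24 on the log2 scale, with a 95% interval of 0.43 to 1.39 and an adjusted p of 0.067 (edgeR). It was called by DESeq2 (0.92, adjusted p = 0.0095) and with the replicate number as a block (0.91, adjusted p = 0.042, edgeR), and not with total counts (0.75, adjusted p = 0.15, edgeR). DESeq2 called 7.21% of all genes larger and 3.47% smaller, and the fit with the block 2.15% and 1.13%. For Mnt it was 0.58 ± 0.21 (adjusted p = 0.15, edgeR; 0.081, DESeq2). Leaving out replicate 2 of wild-type normoxia, 4 members had a larger response in dN-VEGF cells (Mxd4 by 1.13, Mxi1 by 1.07, Mnt by 0.74 and Mxd1 by 0.67) and 2 a smaller one (Mxd3 by -1.65 and Mlx by -0.88), against 21.4% and 23.0% of all genes. In that fit Myc differed by -0.11 (adjusted p = 0.40, edgeR).

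Levels of different members were compared per kilobase of merged exon, since their exons span 1999 (Mlx) to 8483 (Mxd4) bases. Merged exons overstate the length of genes with alternative starts, such as Mxi1, and understate their level. Myc was the highest member in all 4 groups, with 69.0 CPM per kb in normoxic and 109 in hypoxic wild-type cells, and with 61.5 and 97.7 in dN-VEGF cells. In wild-type normoxia Mnt, Max, Mlx, Mxi1, Mxd4 and Mxd3 followed, with ranges that overlapped from neighbour to neighbour, and in dN-VEGF normoxia Mxi1 came after Max, Mnt, Mlx and Mxd3, with a range that overlapped those of Mxd3 and Mxd4. In hypoxia Mxi1 was the next after Myc in both lines, at 45.4 and 66.1 CPM per kb, and was followed by Mnt (26.9 and 38.4), Max (16.8 and 22.6), Mxd4 (14.5 and 14.95) and Mlx (8.498 and 6.86). The ranges of no neighbours in that order overlapped. Mxd3, Mxd1, Mycn and Mycl came last in hypoxia, from 4.91 down to 0.0269 CPM per kb in wild-type cells.

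The level of Mxi1 relative to Myc, per exon length, was 0.139, 0.0767 and 0.149 in normoxic wild-type cells and 0.444, 0.384 and 0.429 in hypoxic ones. In dN-VEGF cells it was 0.116, 0.0750 and 0.118 in normoxia and 0.645, 0.663 and 0.726 in hypoxia. The ratio was higher in every hypoxic library than in any normoxic one, and higher in hypoxic dN-VEGF libraries than in the other 9. Summed over Mxi1, Mnt, Mxd4, Mxd3 and Mxd1, the antagonists came to 0.442 to 0.710 of the MYC family (Myc, Mycn and Mycl) in the normoxic wild-type libraries and 0.824 to 0.874 in the hypoxic ones. In dN-VEGF cells the sum came to 0.545 to 0.619 in normoxia and 1.23 to 1.35 in hypoxia, the group in which antagonist transcripts exceeded those of the family on this scale. Where the sum exceeds the family depends on the exon lengths used. In mean CPM not divided by length, Mxi1 alone stood above Myc in both hypoxic groups, and in neither normoxic group. The hypoxic means were 310.0 against 295.2 CPM in wild-type and 451.1 against 265.5 CPM in dN-VEGF cells. Mxi1 made up 13.7% to 20.8% of the antagonist sum in normoxic libraries and 46.5% to 54.0% in hypoxic ones. These ratios are of transcripts, within a library, and carry no test.

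**Figure D3:**
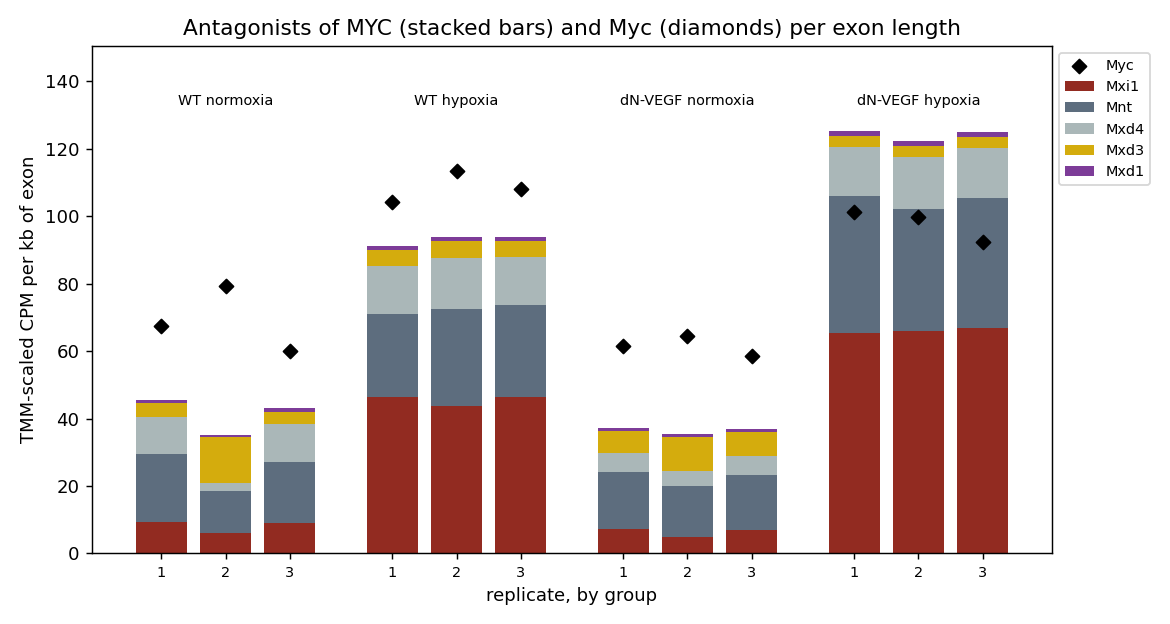
Antagonist transcripts (stacked bars) and Myc (diamonds) in each library, in TMM-scaled CPM per kilobase of merged exon (linear axis from 0). The Mxi1 part of the bar is 17.3% to 20.8% in wild-type normoxia and 52.1% to 54.0% in dN-VEGF hypoxia, where the bars reach above the diamonds. Where bars pass diamonds depends on the exon lengths used.

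Partners, cofactors and corepressors of the network moved in smaller steps than Mxi1, apart from Sap30. Mga, a MAX partner, rose by 0.41 in wild-type (adjusted p = 0.008, edgeR) and 0.72 in dN-VEGF cells (adjusted p = 0.00013, edgeR), and Mlxip, a partner of MLX, fell by 0.34 in wild-type cells (adjusted p = 0.027, edgeR), while its value in dN-VEGF cells was 0.23 (adjusted p = 0.083, edgeR), called without replicate 2 of wild-type normoxia (0.23, adjusted p = 0.03, edgeR) and -0.17 with total counts (adjusted p = 0.16, edgeR). With total counts both rises of Mga were lost (0.18 and 0.32, adjusted p = 0.28 and 0.051, edgeR). Mlxipl had too few reads to be tested. Of 8 cofactors of MYC, 0 rose in either line, 3 fell in wild-type cells and 4 in dN-VEGF cells, where 18.3% and 26.4% of all tested genes fell. Trrap, the scaffold of the acetyltransferase complexes that MYC recruits, fell by 0.41 and 0.46 (adjusted p = 0.0048 and 0.0016, edgeR), and the acetyltransferase Kat2a fell by 0.71 and 1.1 (adjusted p = 0.02 and 0.0011, edgeR). Of 7 subunits of the corepressors that MXI1 and its kin recruit, 1 rose in both lines, where 18.2% and 26.9% of all tested genes rose. This was Sap30, a subunit of the SIN3 complex, at 7.62 ± 2.53 and 54.8 ± 3.51 CPM in wild-type normoxia and hypoxia (mean ± SD, n = 3) and at 9.23 ± 0.288 and 90.3 ± 5.94 CPM in dN-VEGF cells. Its log2 rises were 2.85 and 3.29 (adjusted p = 1.3e-06 and 2.7e-07, edgeR), above that of Mxi1 in wild-type and below it in dN-VEGF cells. Rbbp7 fell in both lines and the deacetylases Hdac1 and Hdac2 in dN-VEGF cells (by 1.02 and 0.89, adjusted p = 0.00046 and 0.0016, edgeR), while Sin3a and Sin3b were not called in either line. Without replicate 2 of wild-type normoxia the falls in wild-type cells were 0.35 for Kat2a (adjusted p = 0.0068, edgeR) and 0.30 for Rbbp7, which was then not called (adjusted p = 0.051, edgeR), and 2 cofactors rose and 3 fell (background 27.1% and 26.9%). With total counts 5 corepressor subunits fell in wild-type and 6 in dN-VEGF cells, and 4 and 7 cofactors, where 32.7% and 44.5% of all tested genes fell.

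Of 10 genes that set the stability of the MYC protein, hypoxia raised 2 and lowered 5 in wild-type cells, and raised 4 and lowered 5 in dN-VEGF cells, beside 18.2% and 18.3% of all tested genes and 26.9% and 26.4%. Gsk3b, the kinase that marks MYC for degradation, rose by 0.76 in wild-type and 1.53 in dN-VEGF cells (adjusted p = 0.00025 and 9.1e-07, edgeR). Fbxw7, the ubiquitin ligase subunit that reads that mark, fell by 0.39 and 0.37 (adjusted p = 0.042 and 0.035, edgeR), and Usp28, which counters it, rose by 0.52 and 0.34 (adjusted p = 0.00074 and 0.0065, edgeR). Skp2, another ligase subunit, fell by 1.04 and 2.60 (adjusted p = 0.017 and 4.7e-05, edgeR). Aurka, a kinase that stabilises MYCN, fell by 2.08 and 2.67 (adjusted p = 0.0052 and 0.00079, edgeR). With the second wild-type normoxia library removed, the falls of Skp2 and Aurka in wild-type cells were 0.45 and 1.03 (adjusted p = 0.0011 and 6.1e-06, edgeR). With total counts 1 of the 10 rose and 5 fell in dN-VEGF cells (background 15.3% and 44.5%), and Usp28 there was at -0.06 (adjusted p = 0.65, edgeR). The protein level of MYC was not measured.

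Myc transcripts rose alike in wild-type and dN-VEGF cells (log2 0.66 and 0.67). Genes known as activated by MYC fell more often than they rose in dN-VEGF cells. In wild-type cells the excess of falls rested on replicate 2 of normoxia (12 rose and 13 fell without it). Of 50 such genes, all tested, hypoxia raised 3 and lowered 17 in wild-type cells, and raised 4 and lowered 29 in dN-VEGF cells, to be read against the backgrounds of 18.2% and 18.3% and of 26.9% and 26.4%. Their median log2 fold changes were -0.74 and -1.07, and those of all tested genes were -0.07 and -0.01. Of 23 ribosome biogenesis genes 0 rose in either line, and 10 and 14 fell. With total counts 15 and 20 fell, where 32.7% and 44.5% of all tested genes did. Rrp12, which takes part in the export of ribosomal subunits, fell by 2.31 and 2.84 (adjusted p = 0.0068 and 0.0014, edgeR), and Bop1 and Ddx21, both needed for ribosomal RNA processing, fell by 1.65 and 1.63 in wild-type cells (adjusted p = 0.0094 and 0.0099, edgeR). With replicate 2 of wild-type normoxia left out, these 3 genes fell by 1.13, 0.80 and 0.76 in wild-type cells (adjusted p = 0.0012, 0.0015 and 0.0011, edgeR). In that fit 2 of these 23 genes were called higher and 8 lower in hypoxic wild-type cells, where 27.1% and 26.9% of all genes were called, and their median log2 fold change went from -0.86 to 0.04. Of 8 cell-cycle genes 1 rose in each line, and 2 and 5 fell (with total counts 0 and 1 rose, and 4 and 5 fell). Once replicate 2 was left out, wild-type cells had 3 of these called higher and 2 lower, and their median log2 fold change went from -0.91 to 0.03. Ccne1, the cyclin of S phase entry, fell by 3.75 in dN-VEGF cells (adjusted p = 0.00016, edgeR) and was not called in wild-type cells (-0.96, adjusted p = 0.14, edgeR). Cdca7 fell by 2.43 in dN-VEGF cells (adjusted p = 0.00013, edgeR). Ccnd2, a G1 cyclin, rose by 0.63 in wild-type and 1.19 in dN-VEGF cells (adjusted p = 0.0016 and 1.1e-05, edgeR). Its call in wild-type cells was lost with total counts (0.39, adjusted p = 0.061, edgeR).

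Of the 12 metabolic genes of that list, hypoxia raised 2 and lowered 3 in wild-type cells and raised 3 and lowered 5 in dN-VEGF cells (2 and 7, and 3 and 8, with total counts). Over all tested genes 18.2% rose and 18.3% fell in the former and 26.9% and 26.4% in the latter (12.8% and 32.7%, and 15.3% and 44.5%, with total counts). Once replicate 2 was left out, wild-type cells had 5 called higher and 2 lower (background 27.1% and 26.9%) and dN-VEGF cells 3 and 8 (32.8% and 34.3%), and the median log2 fold change in wild-type cells was 0.04 in place of -0.40. The rises were led by genes that are also known HIF targets: Hk2, which phosphorylates glucose, rose by 2.48 and 2.83 (adjusted p = 1.8e-05 and 4e-06, edgeR), and Ldha, which makes lactate, by 2.49 and 2.18 (adjusted p = 0.00031 and 0.0004, edgeR). Slc19a1, a folate carrier, rose by 1.61 in dN-VEGF cells (adjusted p = 0.0033, edgeR). Of 7 translation factors and chaperones 0 rose in either line, and 2 and 5 fell, beside 18.3% and 26.4% of all tested genes. With total counts 5 and 6 fell (background 32.7% and 44.5%). With replicate 2 of wild-type normoxia left out, wild-type cells had 2 of the 7 called higher and 1 lower (background 27.1% and 26.9%), and the median was 0.04 in place of -0.57. Among 4 typical targets, Cad, of pyrimidine synthesis, fell by 1.0 and 1.04 (adjusted p = 0.049 and 0.03, edgeR), and the call in wild-type cells was lost without replicate 2 of normoxia (-0.30, adjusted p = 0.15, edgeR). Odc1, of polyamine synthesis, had 0.69 and 0.08 (adjusted p = 0.22 and 0.88, edgeR; 1.63 in wild-type cells without that library, adjusted p = 1.6e-07), Ncl, the nucleolar protein nucleolin, -0.51 and -0.67 (0.19 and 0.076; without that library 0.05 and -0.68, adjusted p = 0.77 and 0.00015), and Cdk4, a G1 kinase, 0.38 and 0.20 (0.11 and 0.34; 0.66 in wild-type cells without that library, adjusted p = 3.2e-05), none of them called with all libraries.

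The fall of the MYC-activated genes in wild-type cells rested on replicate 2 of normoxia. Centred on each gene's mean over the 12 libraries, their median log2 level was -0.30, 1.30 and -0.28 in normoxic wild-type cells and -0.29, -0.28 and -0.26 in hypoxic ones. In dN-VEGF cells it was 0.38, 0.97 and 0.36 in normoxia and -0.47, -0.46 and -0.50 in hypoxia. The dN-VEGF groups did not overlap, while in wild-type cells replicates 1 and 3 of normoxia lay at the level of hypoxia. Without replicate 2, hypoxia raised 12 and lowered 13 of the 50 in wild-type cells (median log2 fold change 0.04; background 27.1% and 26.9%), and raised 5 and lowered 39 in dN-VEGF cells (background 32.8% and 34.3%). Between the lines in normoxia, edgeR called 0 of the 50 with all libraries, where 1 had an unadjusted p below 0.05 and 4.36% of all tested genes were called. DESeq2 also called 0, where it called 8.16% of all genes. Without replicate 2, edgeR called 48 higher in dN-VEGF cells, where 25.7% of all tested genes were higher. In hypoxia 3 were higher and 4 lower in dN-VEGF cells (background 10.8% and 9.36%), and 4 and 15 without replicate 2 (21.2% in each direction). The difference of the responses was called larger in dN-VEGF cells for 0 and smaller for 1 of the 50 with all libraries (background 2.21% and 1.15%), and larger for 1 and smaller for 45 without replicate 2 (21.4% and 23.0%). What sets that library apart was not tested.

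**Figure D4:**
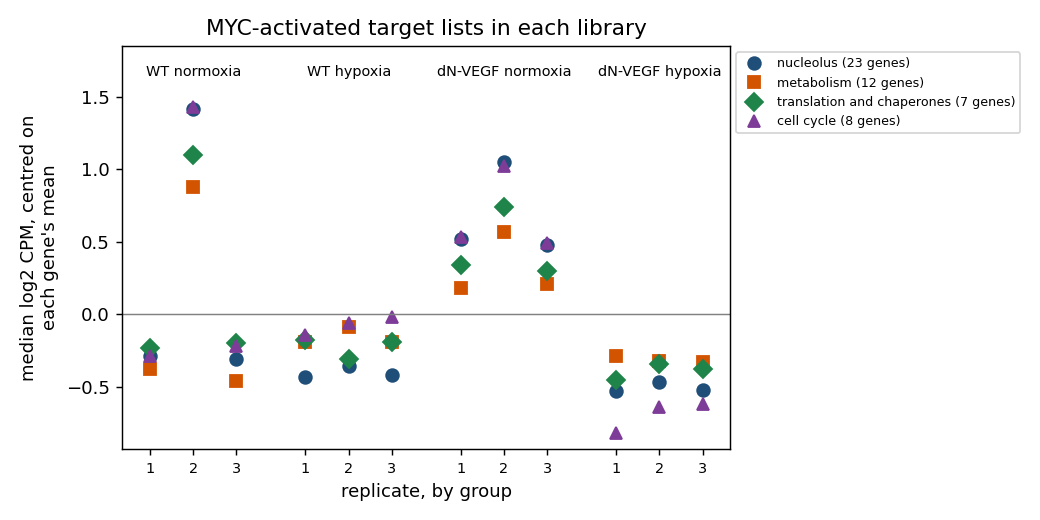
Median log2 CPM of 4 lists of MYC-activated genes in each library, centred on each gene's mean over all 12 libraries. Replicate 2 of wild-type normoxia is the highest library for all 4 lists, and the 3 dN-VEGF normoxia libraries lie above the 3 dN-VEGF hypoxia libraries.

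Of 7 genes known as repressed by MYC, 6 were tested, and Cdkn2b was at 0 in all libraries. In each line 4 rose and 1 fell, where 18.2% and 18.3% of all tested genes did so in wild-type cells and 26.9% and 26.4% in dN-VEGF cells. Without replicate 2, 5 rose and 1 fell in each line (background 27.1% and 26.9%, and 32.8% and 34.3%). With all libraries their median log2 fold changes were 1.22 in wild-type and 1.91 in dN-VEGF cells. The cell-cycle inhibitor Cdkn1a (p21) rose by 3.54 and 3.79 (adjusted p = 1.8e-07 and 5.5e-08, edgeR), and Cdkn1b (p27) by 0.98 and 1.61 (adjusted p = 0.00041 and 6.6e-06, edgeR). Ndrg1, also a HIF target, rose by 2.92 and 4.01 (adjusted p = 1.9e-05 and 1.4e-06, edgeR). Gas1, a growth arrest gene, fell by 2.45 in wild-type and fell by 1.83 in dN-VEGF cells (adjusted p = 7.3e-05 and 0.00027, edgeR). Thbs1, an inhibitor of angiogenesis, rose by 1.46 in wild-type cells (adjusted p = 0.0055, edgeR), with 0.78 in dN-VEGF cells (adjusted p = 0.064, edgeR), and Gadd45a, a stress gene, rose by 2.21 in dN-VEGF cells (adjusted p = 0.0017, edgeR), with 0.85 in wild-type cells (adjusted p = 0.14, edgeR; 0.41 and 0.0033 without replicate 2 of normoxia). In hypoxia Cdkn1a and Cdkn1b were higher in dN-VEGF than in wild-type cells, by 0.56 and 0.52 (adjusted p = 0.035 and 0.03, edgeR), and neither was called with total counts (0.34 and 0.30, adjusted p = 0.053 and 0.25, edgeR).

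Among 8520 genes with a mean of at least 10 CPM, those with the pattern most like that of Myc over the 12 libraries were Galk1 (Pearson r = 0.990 of log2 CPM), Ninj1 (0.989), Preb (0.987), Itpr3 (0.984) and Jun (0.984). Those most like Mxi1 were Pde4dip (0.999), Ifi211 (0.999), Ndrg1 (0.998), Ptges (0.998) and Pfkp (0.997). Within the network, Mxi1 correlated with Mnt at 0.951 and with Myc at 0.889, and with Mxd3 at -0.725. The 12 libraries fall into 4 groups and share their scaling, so these values describe the group means more than the spread between replicates. The genes like Mxi1 had log2 rises of 1.43 to 3.36 in wild-type and 1.92 to 4.6 in dN-VEGF cells. They were picked for their likeness over the same libraries, so the direction of these changes follows from the choice.

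Scaling bears on the smaller changes. TMM factors ran from 0.825 to 0.837 in dN-VEGF hypoxia and from 1.01 to 1.21 in wild-type normoxia, and with total counts alone the median log2 fold change of all genes moved from -0.07 to -0.30 in wild-type and from -0.01 to -0.41 in dN-VEGF cells under hypoxia. On that scale Myc rose by 0.44 and 0.27 (adjusted p = 0.00078 and 0.0097, edgeR) and Mxi1 by 2.24 and 2.98 (adjusted p = 2e-05 and 1.3e-06, edgeR). The rises of Mxd1 and Mxd4 in dN-VEGF cells were then 0.42 and 1.13 and no longer called (adjusted p = 0.22 and 0.059, edgeR), and Myc in hypoxia was lower in dN-VEGF than in wild-type cells by 0.37 (adjusted p = 0.005, edgeR).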

How the data were processed

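RNA was sequenced from 12 samples, 3 per group. The authors prepared libraries with a TruSeq v2 kit, trimmed single-end reads, aligned them to GRCm38.p6 with TopHat2 2.1.0 and counted reads per gene with HTSeq 0.6.1; the deposited values are raw counts, unscaled. Strand setting of the counting is not given in the sources used here. Genes were compared with edgeR 4.0.16 (filterByExpr, TMM, 1 mean per group over all 12 samples, quasi-likelihood F test, Benjamini-Hochberg adjustment over 14724 genes; called at an adjusted p below 0.05). An exact permutation test of 3 against 3 cannot go below 0.1 and was not used. CPM used TMM-scaled library sizes, and log2 CPM a prior count of 2. Intervals are 95%, from the SE. Exon lengths and overlaps came from GENCODE M21 and promoter windows from RefSeq, both on GRCm38. The members and lists were chosen with earlier results of these data known. All 10 members were named; listed genes, and for activated targets Odc1, Ncl, Cad, Cdk4 and the 3 largest called rises and falls per hypoxia comparison (mean at least 10 CPM), could be named. Alternatives were DESeq2 1.42.0, other scalings and filters, samples left out, a fold threshold and a replicate block. Deviations of same-numbered samples correlated at 0.355 to 0.498 between the normoxia groups, and at -0.018 to 0.109 in the other comparisons; in normoxia replicates 1 and 3 correlated crosswise at 0.347 and 0.358 too, so the pairing rests on number 2. The code was tested on simulated counts.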

Additional observations from a re-analysis of the deposited data

Results flagged for a closer look

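Among the members, their partners, cofactors and corepressors, the genes of MYC stability, the MYC targets and the known HIF targets, the responses of 3 genes to hypoxia differed between the lines by the test of the difference itself (dN-VEGF minus wild type, edgeR over all genes), where 326 of all tested genes were called with a larger and 169 with a smaller value. Tested were 9 members, 2 partners, 8 cofactors, 7 corepressor subunits and 10 stability genes. Added to these were 50 activated and 6 repressed MYC targets and 6 HIF targets. Of all tested genes 3.36% were called in either direction. The 3 calls lie close to that share and are not a result about the lists. These are the calls with all 12 libraries; without replicate 2 of wild-type normoxia, 6 of the 9 tested members were called, and of the 50 MYC-activated targets 1 was called with a larger and 45 with a smaller value, where 21.4% of all tested genes were called larger and 23.0% smaller. For Gsk3b, the kinase that marks MYC for degradation, the difference was 0.77 on the log2 scale (adjusted p = 0.026, edgeR): the means were 54.4 ± 7.18 and 92.4 ± 6.05 CPM in wild-type normoxia and hypoxia and 58.5 ± 1.37 and 169.6 ± 11.5 CPM in dN-VEGF cells (mean ± SD, n = 3). It ranged from 0.61 to 0.86 over 19 alternatives and was called in 8 of them, with adjusted p from 2.4e-07 to 0.096 (edgeR or DESeq2). For E2f2, a cell-cycle transcription factor of the MYC target list that was chosen after its values were seen, the difference was -1.91 (adjusted p = 0.0089, edgeR), with 6.06 ± 1.95 and 3.04 ± 0.211 CPM in wild-type cells and 6.60 ± 0.0960 and 0.879 ± 0.0264 CPM in dN-VEGF cells. It ran from -2.22 to -1.78 and was called in 19 of 19 alternatives (adjusted p from 4.4e-09 to 0.043, edgeR or DESeq2). For Vegfa the difference was 1.57 (adjusted p = 0.028, edgeR), with 69.4 ± 26.0 and 280.2 ± 9.72 CPM in wild-type cells and 35.7 ± 1.54 and 428.8 ± 9.35 CPM in dN-VEGF cells. It ranged from 1.39 to 1.84 and was called in 9 of 19 alternatives, with adjusted p from 3.8e-13 to 0.089 (edgeR or DESeq2), and the removed stretch lies in Vegfa itself. The calls of Gsk3b and Vegfa were lost without replicate 1 or 3 of wild-type normoxia (0.71 in each case for Gsk3b, 1.39 and 1.43 for Vegfa), replicate 1 or 3 of dN-VEGF normoxia, any library of wild-type hypoxia, and replicate 1 or 3 of dN-VEGF hypoxia, and that of Vegfa also without replicate 2 of the latter (adjusted p = 0.064 to 0.091, edgeR). That of Gsk3b was also lost with total counts (0.61, adjusted p = 0.096, edgeR) and without a filter (0.69, adjusted p = 0.069, edgeR).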

How the results depend on the processing

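Of 927 values of single members under an alternative, 803 kept their direction and their side of the threshold, 66 were called only under the alternative, 28 were called only in the reported fit and 30 changed sign. The rises of Myc and Mxi1 in both lines and of Mnt in dN-VEGF cells, and the fall of Mycn there, were called under all 21 alternatives of the fit, while a fold of at least 2 leaves out Myc. The rise of Mnt in wild-type cells was called in 18 of the 21. The causes of the shifts given here were not tested. Where 1 library was left out, 1 group of 2 was assumed to vary like the others.

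For hypoxia in wild-type cells, the 3 members called became 8 without both normoxia libraries numbered 2, 1 with a fold of at least 2 and 3 to 7 without 1 library. The 3 targets called higher became 16 without both and 3 to 12 without 1 library, and the 17 called lower became 31 with total counts, 3 in the fit to 6 samples, 0 there with the replicate block and 5 to 25 without 1 library. In dN-VEGF cells the 4 targets called higher became 10 without both. Between the lines in normoxia, 7 members and 47 targets (higher) were called without both, and 0 to 6 and 0 to 48 without 1 library. In hypoxia the 2 members became 1 with total counts or at least 10 counts in every sample, 0 with a fold of at least 2, 7 without both, in the fit to 6 samples and with the replicate block there, and 0 to 6 without 1 library. Targets called higher in hypoxia became 8 in those 3 settings and 1 to 4 without 1 library, and those called lower 26, 26 and 28 (block) and 1 to 15. For the difference of responses 1 member was called by DESeq2 and with the replicate block, 6 without both and 0 to 6 without 1 library. These counts are to be read against the share of all tested genes called in either direction. Without both libraries it was 65.3% and 71.4% for hypoxia in wild-type and dN-VEGF cells, 53.6% and 55.8% between the lines in normoxia and hypoxia, and 52.8% for the difference of responses. Without 1 library it ran from 26.8% to 54.0%, 42.9% to 67.1%, 1.1% to 48.9%, 10.1% to 42.4% and 0.493% to 44.4% in the same order. In the fit to 6 samples it was 23.8% for hypoxia in wild-type cells (13.3% with the block) and 57.0% between the lines in hypoxia (61.1%). For the difference of responses the share was 10.7% by DESeq2 and 3.29% with the replicate block over all 12 samples. With total counts it was 45.6% for hypoxia in wild-type cells and 26.8% between the lines in hypoxia. At least 10 counts in every sample gave 21.7% in the latter.

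Without both libraries, signs changed for Mxd3 (0.34) and Mlx (0.33) in wild-type cells, Mxd1 between the lines in normoxia (-0.14), and the difference of responses of Myc (-0.08) and Max (-0.10). Without a filter they changed for Mnt in normoxia (0.01) and the difference for Myc (-0.07), and with total counts for Mycn and Mxd4 between the lines in hypoxia (-0.18 for both) and the difference for Myc (-0.17) and Max (-0.04). Without 1 library, values in wild-type cells ran from -0.86 to 0.34 for Mxd3 and from -0.34 to 0.33 for Mlx. Between the lines in normoxia they ran from -0.19 to 0.29 for Mxd1, -0.16 to 1.04 for Mxd3, -0.24 to 0.07 for Mnt and -0.10 to 0.57 for Mlx. In hypoxia they ran from -0.11 to 0.26 for Mycn, and the difference ran from -0.11 to 0.10 for Myc and -0.22 to 0.33 for Max. In the replicate block over all 12 samples, Mxi1 was called for the difference of responses (adjusted p = 0.042, edgeR), and the block changed no other call of a member.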
